A study of Mus musculus with 12 samples.

Results

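Mitochondrial iron and heme transport genes encode the carriers that bring iron, glycine and porphyrin intermediates into the mitochondrion during heme synthesis, the partners of these carriers, and exporters of heme. The set held 9 genes, Slc25a37, Slc25a38, Abcb10, Abcb6, Fam210b, Tmem14c, Glrx5, Flvcr1 and Tspo2, picked by gene symbol out of 55487 gene rows, and each symbol matched exactly 1 row. All 9 reached the level set for testing, 1 TPM on average (a transcript level divided by gene length and scaled to the same total in every library), as did 11379 genes in all. RNA was sequenced from G1E-ER4, an established line of mouse erythroid progenitors without endogenous GATA1, in which an added form of GATA1 is switched on by estradiol. Every culture, controls included, received nucleofected siRNA at a pair of time points 24 h apart, differentiated in 100 nM β-estradiol and was collected at 24 h. The groups were siZIP10 plus DTPA (siRNA to Slc39a10, whose product ZIP10 imports zinc, with 25 µM of the extracellular metal chelator DTPA; n = 3), siZIP10 without DTPA (n = 3), siControl plus DTPA (n = 2) and siControl without DTPA (n = 3). The siControl plus DTPA group lost its replicate 3, because the values given for it repeated those of siZIP10 replicate 1 in all 55487 rows. Only 1 cell line was used, no group had zinc or ZIP10 restored, and effects of DTPA through metals other than zinc cannot be told apart from those through zinc.

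Heme is built partly in the cytosol and partly in mitochondria, so that its substrates have to cross the inner mitochondrial membrane. Mitoferrin-1 (SLC25A37) carries iron inward in erythroid cells, where ABCB10 binds and stabilises it, and SLC25A38 brings in the glycine that joins succinyl-CoA at the start of the pathway. TMEM14C is needed for protoporphyrinogen import, ABCB6 has been described as a porphyrin transporter, and FAM210B supports iron supply to ferrochelatase, the enzyme that inserts iron. GLRX5 passes on iron-sulfur clusters, FLVCR1 exports heme and is also known as a choline transporter, and TSPO2 is an erythroid membrane protein linked to porphyrin and cholesterol handling. Genes with several isoforms, such as Flvcr1 with a plasma membrane and a mitochondrial form, are given here as their sum, since the values are per gene.

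RefSeq promoter windows of build GRCm38.p6, reaching from 250 bases before to 50 bases after a gene's start, were matched for 8 of the 9 genes. Slc25a37 had no window, so none of the counts below covers it. Those of 4 genes are shown, 3 that carry a metal response element core and whose transcripts departed from the sum of the separate treatments below, and that of Tspo2, whose transcript moved unlike the others. Capitals mark that core, TGCGCNC or TGCACNC on either strand, the letters bound by the zinc-sensing factor MTF1. In Tspo2, which lacks it, they mark a pair of overlapping matches to CCNCNCCC, the letters recognised by the erythroid factor KLF1.
Flvcr1, chr1:191026141-191026440, minus strand: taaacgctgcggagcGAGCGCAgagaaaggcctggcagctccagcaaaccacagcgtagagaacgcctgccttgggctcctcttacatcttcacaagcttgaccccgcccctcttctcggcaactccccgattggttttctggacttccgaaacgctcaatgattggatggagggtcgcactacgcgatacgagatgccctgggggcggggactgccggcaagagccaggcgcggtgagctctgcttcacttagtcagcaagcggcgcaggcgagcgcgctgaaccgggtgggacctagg
Abcb10, chr8:123983073-123983372, minus strand: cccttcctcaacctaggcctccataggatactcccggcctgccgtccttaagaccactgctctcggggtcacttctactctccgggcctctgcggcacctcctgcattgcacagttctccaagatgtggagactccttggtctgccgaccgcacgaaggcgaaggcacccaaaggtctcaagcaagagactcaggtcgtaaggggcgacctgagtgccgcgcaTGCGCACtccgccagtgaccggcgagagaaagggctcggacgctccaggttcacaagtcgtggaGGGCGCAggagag
Fam210b, chr2:172345327-172345626, plus strand: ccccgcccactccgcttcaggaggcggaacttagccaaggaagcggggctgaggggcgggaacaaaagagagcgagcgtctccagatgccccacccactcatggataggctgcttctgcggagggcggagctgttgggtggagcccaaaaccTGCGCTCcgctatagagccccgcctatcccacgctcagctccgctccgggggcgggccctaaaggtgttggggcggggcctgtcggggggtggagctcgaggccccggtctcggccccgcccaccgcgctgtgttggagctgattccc
Tspo2, chr17:48451452-48451751, minus strand: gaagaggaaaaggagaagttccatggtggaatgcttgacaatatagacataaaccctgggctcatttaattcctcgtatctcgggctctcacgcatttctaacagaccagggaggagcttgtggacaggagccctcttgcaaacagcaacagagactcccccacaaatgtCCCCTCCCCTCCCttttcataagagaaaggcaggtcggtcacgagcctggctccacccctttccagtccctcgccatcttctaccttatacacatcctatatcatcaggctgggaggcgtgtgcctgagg
The metal response element core was found in 4 of the 8 windows (Flvcr1, Abcb10, Fam210b and Abcb6), and in 25.7% of 32817 RefSeq windows of the same length. Flvcr1 departed upward from the sum of the separate treatments, and Abcb10 and Fam210b downward. Glrx5 and Tspo2 were also called as departing but lack the core, and Abcb6 carries it but was not called. Slc25a38 and Tmem14c lack it and were not called. Any link between the core and these changes was not tested. CCNCNCCC, which may overlap itself and was also read on both strands, was found in 6 of the 8 windows, all but those of Abcb10 and Glrx5, and in 49.5% of all windows. The GATA letters searched, on both strands, were AGATAA and, besides it, TGATAA, and the same words with a final G in place of the final base. They were found in 0 of the 8 windows and in 29.8% of all windows. These matches describe letters in the windows and say nothing of binding.

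The libraries held 19.6 M to 24.7 M reads, recovered from the TPM values and exon lengths. Correlations of log2 values were 0.988 to 0.991 within groups and 0.939 to 0.986 between them. Slc39a10, the targeted gene, averaged 5.10 ± 0.23 TPM in siZIP10 plus DTPA, 0.627 ± 0.182 in siZIP10, 21.1 ± 1.2 in siControl plus DTPA (n = 2) and 2.62 ± 0.27 in siControl (SD, n = 3 where not given). Its siRNA thus left 23.9% of the transcript without DTPA and 24.2% with it, and doubly treated cells held more of it than controls. The 11 erythroid markers summed to 38454 to 46310 TPM in siZIP10 plus DTPA libraries and 40760 to 47611 TPM in siControl libraries. Doubly treated libraries stood apart in mitochondrial rRNA, at 1.43% to 1.45% of TPM against 0.262% to 0.421% in the other groups. Their sums over 8 megakaryocyte markers were higher, at 57.3 to 58.5 TPM against 16.2 to 17.5 TPM in siControl, as were those over 7 mast cell and basophil markers, at 96.8 to 101.5 TPM against 38.8 to 42.9 TPM in siControl. The mast cell and basophil sums came almost wholly from Gata2, also a gene of erythroid progenitors (77.1 ± 3.3 TPM in siZIP10 plus DTPA and 39.7 ± 2.0 TPM in siControl), and Hdc (21.6 ± 0.9 TPM in siZIP10 plus DTPA and 1.10 ± 0.24 TPM in siControl; SD, n = 3 each). Among these, Ppbp, Mcpt8, Fcer1a and Ms4a2 were at 0 in all 4 groups. Sums of 8 myeloid markers were 5.86 to 6.80 TPM against 2.33 to 3.32 TPM and those of 7 lymphoid markers 2.38 to 3.29 TPM against 0.296 to 1.08 TPM. With siZIP10 alone the erythroid, megakaryocyte and mast cell sums were 46943 to 50608, 17.2 to 18.7 and 34.7 to 35.0 TPM, and with DTPA alone 49714 to 55728, 25.7 to 26.7 and 41.1 to 42.1 TPM. The part of these differences in the results below was not tested, and in bulk RNA fewer cells of a type and less RNA per cell cannot be told apart.

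With both treatments, 7 of the 9 genes fell and 1 rose against siControl. Mitoferrin-1 transcript fell most, to 33.9% of its control level, and the heme exporter gene Flvcr1 rose to 158.2%. Over all genes tested, 66.6% were called in this comparison, 26.7% higher and 39.9% lower, so that most genes of any kind passed. After quantile normalization 50.2% of the called genes were higher, against 40.1% without it. The median fitted change was −0.37 for the 9 genes and −0.08 for all tested genes (differences of log2(TPM + 1), the scale of all changes below). Against siControl, siZIP10 alone changed 5 of the 9 genes, 3 lower and 2 higher, with 30.6% of all genes called (13.1% higher, 17.5% lower), and DTPA alone changed 2, 1 lower and 1 higher, with 28.8% called (9.98% higher, 18.8% lower). Among called genes, 42.9% were higher with siZIP10 alone and 34.7% with DTPA alone, against 54.3% with siZIP10 alone and 51.1% with DTPA alone after quantile normalization (46.8% with DTPA alone under median-of-ratios scaling). For DTPA alone the share of the 9 genes called was no larger than that of all genes. These 3 comparisons share the 3 siControl libraries. Calls are those of limma at an adjusted p under 0.05.

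**Figure D1:**
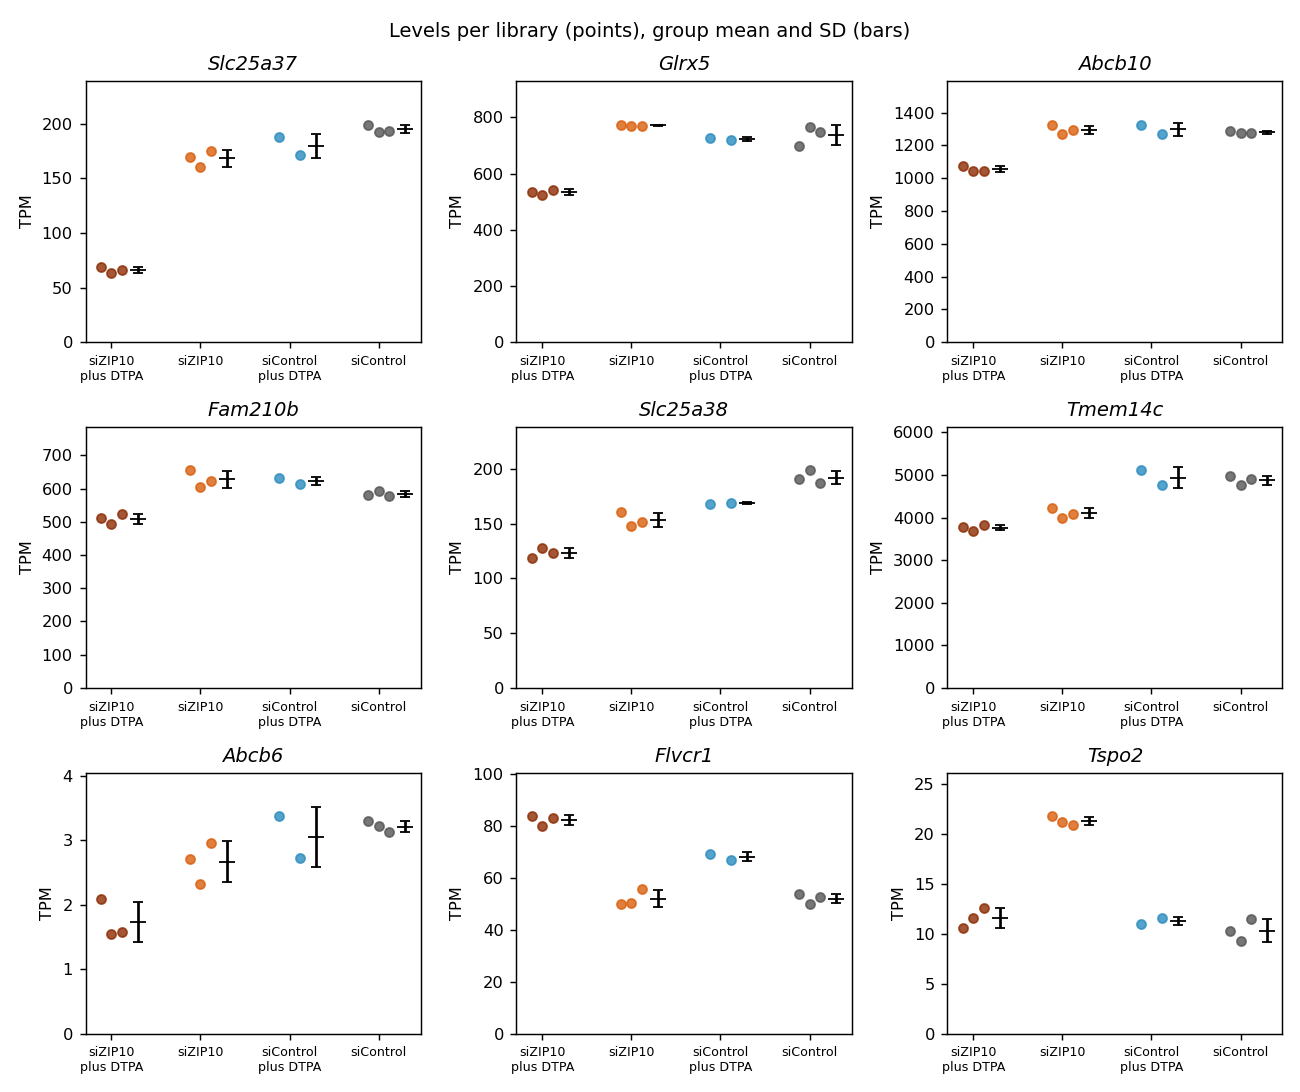
TPM of the 9 genes (vertical axes, each from 0) in every library (points) by group, with the group mean and SD beside them. Slc25a37 libraries of siZIP10 plus DTPA lie between 63.4 and 69.2 TPM, under all others, Flvcr1 is highest in the same group, and Tspo2 is highest in siZIP10.

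Iron import showed the widest change. Slc25a37 (ENSMUSG00000034248.7, mm10 chromosome 14, 69241848 to 69285112, minus strand) stood at 69.2, 63.4 and 66.2 TPM in siZIP10 plus DTPA. It stood at 169.9, 160.0 and 174.9 TPM in siZIP10, at 187.6 and 171.7 TPM in siControl plus DTPA, and at 199.3, 192.7 and 193.8 TPM in siControl. The doubly treated libraries lay under those of every other group without overlap, and the siControl libraries lay above all others. Doubly treated cells thus fell by 1.55 against siControl (SE 0.04, adjusted p = 3.35e-10), a change lower than that of all but 252 of the 11379 genes tested. siZIP10 alone lowered Slc25a37 to 86.2% of control (−0.21, SE 0.04, adjusted p = 0.00481). With DTPA alone it averaged 92.0% of control, which did not pass (−0.12, 95% interval −0.23 to −0.01, adjusted p = 0.101). That change passed with voom, with a replicate block and with the duplicated library as labelled, at an adjusted p of 0.016 to 0.0476. Exons of Gm31748 cover 6.33% of the exon length of Slc25a37.

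DTPA lowered Slc25a37 to 39.4% within the knockdown (−1.33, adjusted p = 1.94e-09), a comparison in which all 9 genes were called, 8 lower and 1 higher, with 60.4% of all genes called (23.1% higher, 37.3% lower). Of the called genes 38.2% were higher, and 50.1% after rescaling to nuclear protein-coding genes. The interaction, the change with DTPA in siZIP10 cells less the change with DTPA in siControl cells, was −1.21 (SE 0.07, adjusted p = 6.52e-07), and 6 of the 9 genes were called for it, 5 lower and 1 higher, with 32.4% of all genes (12% higher, 20.4% lower). Among those calls 37.1% were higher, and 54.3% after rescaling to nuclear protein-coding genes. The knockdown likewise lowered it to 36.9% within DTPA (−1.42, adjusted p = 5.53e-09), where 8 of the 9 genes were called, 7 lower and 1 higher, with 53.1% of all genes called (21.3% higher, 31.7% lower). Of these 40.2% were higher, and 53.1% after that rescaling.

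Slc25a28, which encodes mitoferrin-2, the widely expressed iron carrier, rose. It averaged 25.5 ± 2.3 TPM in siZIP10 plus DTPA and 21.8 ± 0.9 TPM in siControl (SD, n = 3 each; change 0.22, adjusted p = 0.0238). Within a library, Slc25a37 was 2.46 to 2.81 times Slc25a28 in siZIP10 plus DTPA, 7.90 to 8.65 times in siZIP10, 7.96 to 8.67 times in siControl plus DTPA and 8.55 to 9.58 times in siControl.

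**Figure D2:**
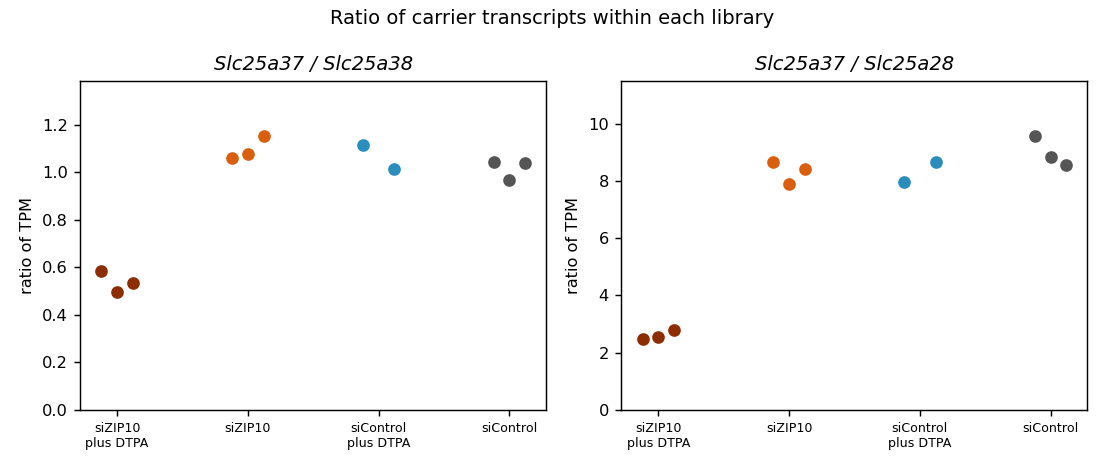
Ratio of Slc25a37 TPM to Slc25a38 TPM (left) and to Slc25a28 TPM (right) within each library (points), by group; axes start at 0. The doubly treated libraries lie at 0.495 to 0.583 and at 2.46 to 2.81, under every other library.

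Abcb10 (ENSMUSG00000031974.8, chromosome 8, 123952459 to 123983122, minus strand) encodes the partner that stabilises mitoferrin-1. Its levels were 1075, 1047 and 1046 TPM in siZIP10 plus DTPA, 1323, 1271 and 1293 TPM in siZIP10, 1327 and 1267 TPM in siControl plus DTPA, and 1287, 1277 and 1274 TPM in siControl. The doubly treated libraries were the lowest, and the other 3 groups overlapped. Abcb10 fell to 82.5% of control with both treatments (−0.28, SE 0.02, adjusted p = 2e-06). The changes with siZIP10 alone (0.02, 95% interval −0.04 to 0.07) and with DTPA alone (0.02, interval −0.04 to 0.08) did not pass, and the interaction was −0.31 (SE 0.04, adjusted p = 8.97e-05). Exons of the antisense gene Gm45890 cover 10.3% of the exon length of Abcb10.

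Fam210b (ENSMUSG00000027495.4, chromosome 2, 172345565 to 172355749, plus strand), an adaptor for iron supply to ferrochelatase, had 510.4, 493.4 and 523.9 TPM in siZIP10 plus DTPA. It had 655.0, 603.9 and 623.7 TPM in siZIP10, 630.6 and 614.8 TPM in siControl plus DTPA, and 580.2, 592.8 and 578.7 TPM in siControl. The doubly treated libraries were below and those with a single treatment above every siControl library. Fam210b fell to 87.2% of control with both treatments (−0.20, SE 0.03, adjusted p = 0.00028), and the interaction was −0.39 (SE 0.05, adjusted p = 0.000143). The fall with both treatments kept its call but was smaller under the 3 other scalings and voom, at −0.11 to −0.13. The rise with siZIP10 alone, to 107.5% of control (0.10, adjusted p = 0.0355), lost its call in 9 of 22 alternatives, among them those without siControl replicate 1, 2 or 3 and without siZIP10 replicate 1 or 3 (adjusted p = 0.0529 to 0.116). The difference with DTPA alone (0.09, adjusted p = 0.0831) passed in 7.

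Glrx5 (ENSMUSG00000021102.4, chromosome 12, 105032688 to 105042906, plus strand), the mitochondrial glutaredoxin of iron-sulfur cluster transfer, had 536.0, 523.2 and 542.9 TPM in siZIP10 plus DTPA. The level was 774.3, 769.4 and 770.2 TPM in siZIP10, 727.4 and 718.6 TPM in siControl plus DTPA, and 697.1, 765.0 and 747.4 TPM in siControl. Here too the doubly treated libraries lay apart below the rest. Glrx5 fell to 72.5% of control with both treatments (−0.46, SE 0.03, adjusted p = 2.74e-07). Neither the change with siZIP10 alone (0.07, 95% interval −0.00 to 0.14) nor that with DTPA alone (−0.03, interval −0.10 to 0.05) passed, and the interaction was −0.50 (SE 0.05, adjusted p = 2.11e-05). With voom the difference with siZIP10 alone passed (0.07, adjusted p = 0.0284).

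The glycine carrier gene fell in steps. Slc25a38 (ENSMUSG00000032519.11, chromosome 9, 120110374 to 120124504, plus strand) had 118.6, 128.0 and 123.6 TPM in siZIP10 plus DTPA and 160.4, 148.3 and 151.5 TPM in siZIP10. It had 168.4 and 169.3 TPM in siControl plus DTPA and 191.1, 198.7 and 186.7 TPM in siControl. The 4 groups did not overlap, in that order from low to high. Slc25a38 fell to 64.2% of control with both treatments (−0.64, SE 0.04, adjusted p = 8.77e-08), to 79.8% with siZIP10 alone (−0.32, SE 0.04, adjusted p = 0.000132) and to 87.9% with DTPA alone (−0.19, SE 0.04, adjusted p = 0.00791). The last call did not hold when replicate 1 of siControl plus DTPA was left out (adjusted p = 0.0516). The interaction did not pass (−0.13, 95% interval −0.25 to −0.00, adjusted p = 0.12).

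Slc25a37 and Slc25a38 belong to the same carrier family and started from like levels, since their siControl ranges overlapped. Within a library, Slc25a37 was 0.495 to 0.583 times Slc25a38 in siZIP10 plus DTPA, 1.06 to 1.15 times in siZIP10, 1.01 to 1.11 times in siControl plus DTPA and 0.970 to 1.04 times in siControl.

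Among porphyrin carriers, Tmem14c (ENSMUSG00000021361.7, chromosome 13, 41016292 to 41022586, plus strand) was the most abundant of the 9 genes. It had 3786, 3689.8 and 3819 TPM in siZIP10 plus DTPA, 4224, 3989.97 and 4084 TPM in siZIP10, 5110.1 and 4767 TPM in siControl plus DTPA, and 4969.75, 4757 and 4902 TPM in siControl. Both knockdown groups lay below both groups with the control siRNA, and the DTPA group with control siRNA overlapped siControl. Tmem14c fell to 77.2% of control with both treatments (−0.37, SE 0.03, adjusted p = 2e-06) and to 84.1% with siZIP10 alone (−0.25, SE 0.03, adjusted p = 0.000285). Under quantile normalization these changes were −0.91 with both treatments and −0.48 with siZIP10 alone. With DTPA alone the change did not pass (0.02, 95% interval −0.06 to 0.10, adjusted p = 0.766). DTPA lowered it to 91.8% within the knockdown (−0.12, adjusted p = 0.0078), a call lost under median-of-ratios scaling (−0.06, adjusted p = 0.0964), under scaling to nuclear protein-coding genes (−0.03, adjusted p = 0.326), with no filter (adjusted p = 0.0694) and with the duplicated library as labelled (adjusted p = 0.103). That change was also −0.06 with voom (adjusted p = 0.0267) and −0.43 under quantile normalization (adjusted p = 0.00974). The interaction of −0.14 lay at the threshold (adjusted p = 0.0516) and passed in 7 alternatives.

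Abcb6 (ENSMUSG00000026198.15, chromosome 1, 75171717 to 75180392, minus strand), the other porphyrin transporter, was the least abundant. It had 2.08, 1.54 and 1.57 TPM in siZIP10 plus DTPA (82, 68 and 58 reads), 2.71, 2.33 and 2.96 TPM in siZIP10 (92, 84 and 111 reads), 3.37 and 2.72 TPM in siControl plus DTPA (132 and 110 reads), and 3.29, 3.22 and 3.13 TPM in siControl (133, 119 and 103 reads). The doubly treated libraries lay below all others, and the DTPA group with control siRNA overlapped siControl. Abcb6 fell to 53.9% of control with both treatments (−0.63, SE 0.12, adjusted p = 0.000889), and the change came out at −0.87 when 0.1 was added before the log and at −0.83 under voom. Changes with siZIP10 alone (−0.20, 95% interval −0.48 to 0.07) and DTPA alone (−0.06, interval −0.37 to 0.24) and the interaction (−0.36, interval −0.77 to 0.04) did not pass. Exons of Gm29253, on the same strand, cover 55.2% of the exon length of Abcb6. Gm29253 itself averaged 0.018 to 0.034 TPM over the groups, so few reads were assigned to it. Reads in the shared exons may still have been dropped by the counting, so that the level of Abcb6 is uncertain.

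Of the exporters, Flvcr1 (ENSMUSG00000066595.9, chromosome 1, 191005847 to 191026158, minus strand) had 83.7, 80.0 and 83.0 TPM in siZIP10 plus DTPA and 49.98, 50.3 and 55.6 TPM in siZIP10. It had 69.3 and 66.8 TPM in siControl plus DTPA and 53.6, 49.9 and 52.5 TPM in siControl. Both DTPA groups lay above both groups without DTPA, which overlapped. Flvcr1 rose to 158.2% of control with both treatments (0.65, SE 0.05, adjusted p = 2.94e-07) and to 130.9% with DTPA alone (0.38, SE 0.05, adjusted p = 0.000302), whereas with siZIP10 alone it stood at 100.0% (−0.00, 95% interval −0.10 to 0.10, adjusted p = 0.984). The rise with DTPA was larger within the knockdown (0.65, adjusted p = 4.04e-07), with an interaction of 0.27 (SE 0.07, adjusted p = 0.0108). The interaction call did not hold when replicate 2 of siControl plus DTPA was left out (0.24, adjusted p = 0.0519), nor did that of DTPA alone with the duplicated library as labelled (0.24, adjusted p = 0.113), where the interaction was 0.42 (adjusted p = 0.0396). Exons of the antisense gene A230020J21Rik cover 15.6% of the exon length of Flvcr1, and the strand setting of the counting is not given in the sources used here.

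Tspo2 (ENSMUSG00000023995.12, chromosome 17, 48447907 to 48451522, minus strand) rose with the knockdown alone. It had 10.6, 11.6 and 12.6 TPM in siZIP10 plus DTPA, 21.8, 21.2 and 20.95 TPM in siZIP10, 11.0 and 11.6 TPM in siControl plus DTPA, and 10.3, 9.27 and 11.5 TPM in siControl. The siZIP10 libraries lay above all others, and the other 3 groups overlapped. The level with siZIP10 alone was 2.06 times that of siControl (0.98, SE 0.08, adjusted p = 1.09e-05), and 50 of the 11379 tested genes had a higher change. DTPA within the knockdown lowered Tspo2 to 54.3% of the siZIP10 level (−0.83, SE 0.08, adjusted p = 4.75e-06), and the interaction was −0.95 (SE 0.12, adjusted p = 0.000136). With both treatments the difference from siControl did not pass (0.15, 95% interval −0.02 to 0.32, adjusted p = 0.111), although it did in 6 alternatives (0.20 to 0.24, adjusted p = 0.0234 to 0.0464). Its widely expressed relative Tspo, whose product sits in the outer mitochondrial membrane, averaged 109.3 ± 5.3 TPM in siZIP10 plus DTPA, 157.7 ± 4.5 TPM in siZIP10, 158.6 ± 11.9 TPM in siControl plus DTPA (n = 2) and 168.0 ± 8.3 TPM in siControl (SD, n = 3 where not given). Tspo fell with both treatments (−0.62, adjusted p = 1.29e-06) and did not pass with siZIP10 alone (−0.09, adjusted p = 0.221).

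**Figure D3:**
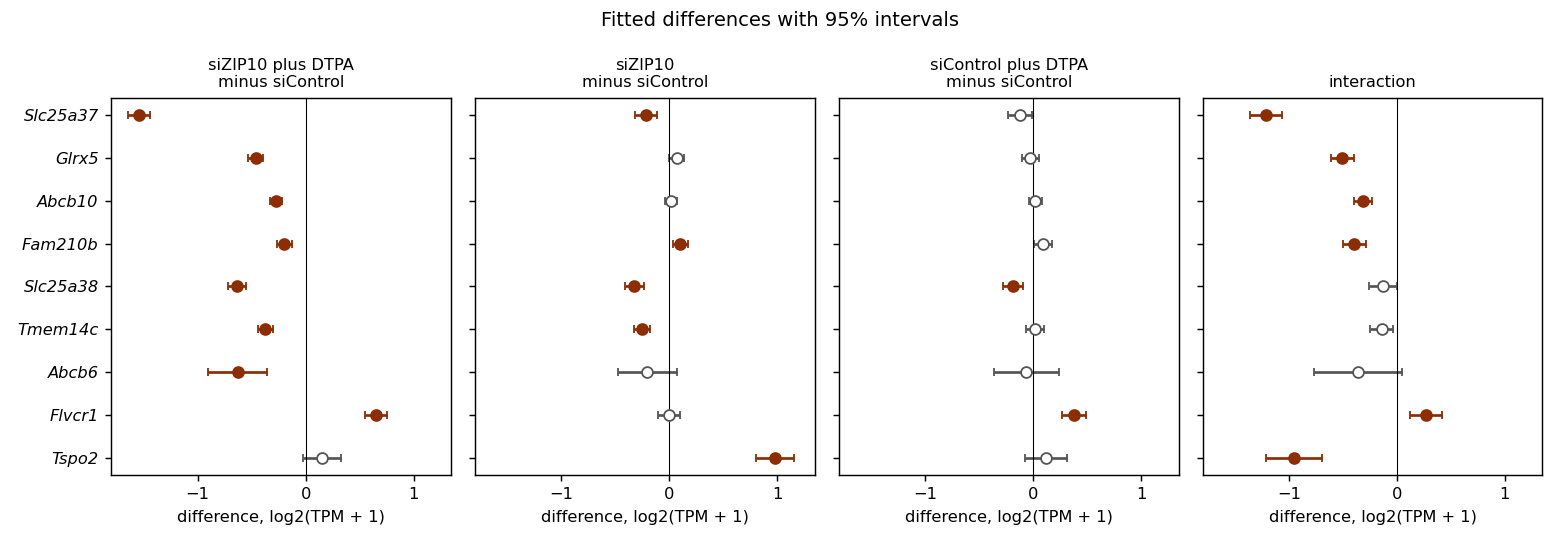
Fitted differences of log2(TPM + 1) with 95% intervals for the 9 genes; filled points passed an adjusted p of 0.05. The last panel is the interaction, which lies at −1.21 for Slc25a37 and −0.95 for Tspo2.

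Because TPM is a level per length, the genes can be ordered within a group. In siControl the order of mean TPM was Tmem14c (4876), Abcb10 (1279), Glrx5 (736.5), Fam210b (583.9), Slc25a37 (195.3), Slc25a38 (192.2), Flvcr1 (52.0), Tspo2 (10.3) and Abcb6 (3.21), and the ranges of neighbours overlapped for Slc25a37 and Slc25a38. The single treatments kept this order, and the same neighbours overlapped in siZIP10. In siZIP10 plus DTPA, Slc25a37 (66.3 TPM) stood below Slc25a38 (123.4 TPM) and Flvcr1 (82.2 TPM), and the ranges of Glrx5 and Fam210b overlapped.

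Tested genes that averaged 10 TPM or more (7597 genes) were compared by their 3 changes against siControl, and likeness was the largest difference over the 3. For Slc25a37, 2 genes lay within 0.1, among them Trim10 (0.08), known from terminal erythroid differentiation. Closest to Slc25a38 were Ciapin1 (0.01), which acts in cytosolic iron-sulfur cluster assembly, and 2310009B15Rik (0.03), with 97 genes within 0.1. Ublcp1 (0.02) and Stk11 (0.03) were closest to Abcb6, with 85 genes within 0.1. Flvcr1 was closest to the sideroflexin gene Sfxn4 (0.03) and to Snora73b (0.04), with 19 genes within 0.1. No gene lay within 0.1 of Tspo2, and the closest, Gm2058 (0.35) and Gm48905 (0.38), were far.

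The rest of the pathway was read from 6 lists of other genes, whose counts stand beside 66.6% of all tested genes called with both treatments, 30.6% with siZIP10 alone and 28.8% with DTPA alone. All 9 heme synthesis enzymes changed with both treatments, 6 lower and 3 higher, with a median of −0.36 beside −0.08 for all tested genes. Alad, the zinc-dependent enzyme that makes porphobilinogen, fell to 64.2 ± 2.5 TPM in siZIP10 plus DTPA, against 514.0 ± 0.5 TPM in siControl (−2.98, SE 0.03, adjusted p = 6.71e-13). With siZIP10 alone 5 enzymes fell and 2 rose (median −0.12), with Alad at −0.57. With DTPA alone 3 fell and 3 rose (median −0.06), with Alad at −0.70 and Uros, the uroporphyrinogen III synthase gene, at 0.46.

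Of 10 tested relatives of the 9 genes, 7 fell and 3 rose with both treatments (median −0.38). Slc25a39, a mitochondrial glutathione importer, fell by 1.26 to 137.6 ± 2.7 TPM in siZIP10 plus DTPA, against 331.2 ± 12.7 TPM in siControl, and its relative Slc25a40 fell by 0.68. With siZIP10 alone 2 rose and none fell, Fam210a (0.27) and Glrx2 (0.16), a smaller share than the 30.6% of all tested genes. With DTPA alone 3 fell and 1 rose, with Slc25a39 at −0.47 and Slc25a40 at −0.32.

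Of 14 tested genes of mitochondrial iron-sulfur cluster assembly, 8 fell, 1 rose and 5 did not pass with both treatments (median −0.30), a called share close to the 66.6% of all tested genes. Bola3, which acts late in cluster delivery, fell to 17.9 ± 1.0 TPM in siZIP10 plus DTPA, against 52.8 ± 2.9 TPM in siControl (−1.51). With siZIP10 alone 4 fell and 1 rose (Bola3 −0.32), and with DTPA alone 5 fell and 1 rose (Bola3 −0.30), beside 30.6% of all tested genes called with siZIP10 alone and 28.8% with DTPA alone.

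All 10 genes of iron delivery changed with both treatments, 6 lower and 4 higher, with a median of −0.16. The transferrin receptor gene Tfr2 rose by 0.66 and the iron chaperone gene Pcbp1 fell by 0.44. With siZIP10 alone 1 rose and 2 fell, with the iron transporter gene Slc11a2 at −0.20 and Ncoa4, the ferritin autophagy receptor, at 0.17. With DTPA alone 1 rose and 1 fell, Ncoa4 (0.20) and Pcbp1 (−0.18). The called share of the list was thus near the 30.6% of all tested genes with siZIP10 alone and under the 28.8% with DTPA alone.

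Of 9 tested genes of heme handling and breakdown, 5 fell, 3 rose and 1 did not pass with both treatments (median −0.16). Hebp1, a heme-binding protein gene, fell by 1.04, and Slc48a1, the heme importer HRG1 of endosomes and lysosomes, rose to 340.1 ± 2.2 TPM in siZIP10 plus DTPA, against 180.1 ± 5.9 TPM in siControl (0.91). With siZIP10 alone 3 rose and 3 fell, and heme oxygenase Hmox1 rose to 237.9 ± 9.1 TPM in siZIP10, against 157.1 ± 4.0 TPM in siControl (0.59), with Pgrmc1 at 0.28. With DTPA alone 1 rose and 2 fell, with Slc48a1 at 0.36 and the biliverdin reductase gene Blvra at −0.28.

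The last list held mitochondrial proteases and unfoldases and also Atpif1, whose product inhibits the ATP synthase and supports heme synthesis. All 5 tested genes of that list fell with both treatments (median −0.62). The largest falls were those of Atpif1 (−0.76) and of Clpx (−0.72), the unfoldase that activates aminolevulinate synthase. With siZIP10 alone Lonp1 (−0.20) and Clpx (−0.16) fell, and with DTPA alone the same 2 genes fell (−0.41 and −0.22).

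**Figure D4:**
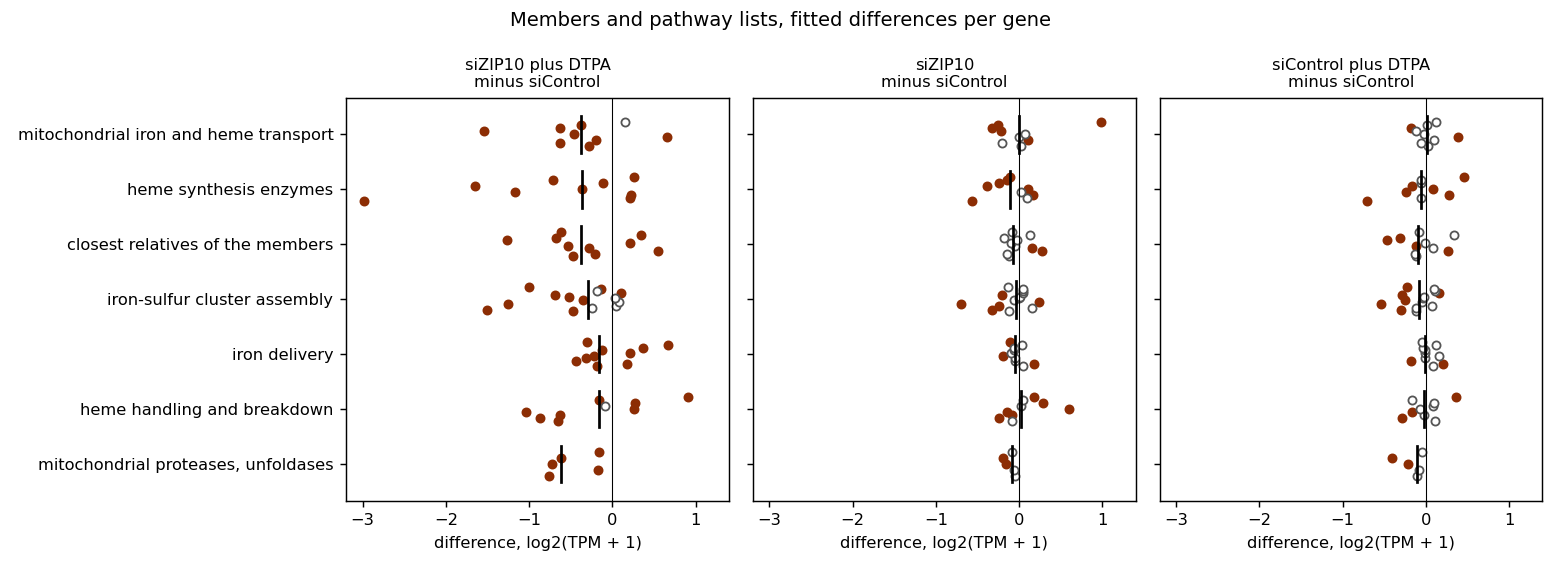
Fitted differences of log2(TPM + 1) against siControl for the 9 genes and the tested genes of 6 lists, 1 point per gene; filled points passed an adjusted p of 0.05 and black bars are medians. Alad lies at −2.98 and Slc25a37 at −1.55 with both treatments, and the median of the heme synthesis enzymes lies at −0.36 with both treatments, −0.12 with siZIP10 and −0.06 with DTPA.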

How the data were processed

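RNA of 12 libraries was made into libraries with a stranded mRNA kit, per the labels' protocols. The deposited values are TPM computed by the authors, each library summing to 1e+06. The submitters' processing notes name Trimmomatic 0.33, FastQC, HISAT2 2.1.0, featureCounts, edgeR and mm10, and give no annotation or settings. Positions and exon lengths are from GENCODE mouse release 21 (mm10), which matched 53365 of 55367 distinct names. TPM carries no counts: TPM times exon length fell on whole multiples of a unit per library (99.0% to 99.2% of values up to 20 reads within 0.1 read), which gave the reads.

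The duplicated library was left out, so that 11 were used. Genes averaging 1 TPM or more were tested as log2(TPM + 1), which understates changes of low genes, with limma 3.58.1 (R 4.3.3): moderated test with a trend, 4 group means, 7 residual and 3.21 prior degrees of freedom, two-sided, Benjamini-Hochberg over all 11379 genes in each of 6 comparisons, threshold 0.05. Nothing says that the biological replicates were separate transfections on separate days, so p-values measure the spread between these samples. The pipeline was tested on simulated data. Alternatives were another pseudocount, filter, scaling, spread or block, voom, the duplicated library as labelled and leaving out each library.

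The 9 genes and the lists were chosen with earlier results of these data known. Named are the 9 genes, Slc39a10, the 2 called genes of each list with the largest change against siControl per comparison, and for genes with a called change of at least 0.5 the 2 closest in their changes; some genes that this rule names are not reported here. Cell type markers were summed per library. Slc25a28 and Tspo, the nearest paralogs, were picked out after their values were seen. Tables were joined in Python 3.11.15 with pandas 2.3.3.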

Additional observations from a re-analysis of the deposited data

Results flagged for a closer look

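For 6 of the 9 genes the DTPA effect differed between knockdown and control cells in limma's interaction test, and their values are gathered here. The interaction was −1.21 for Slc25a37, −0.95 for Tspo2, −0.50 for Glrx5, −0.39 for Fam210b and −0.31 for Abcb10, and it was 0.27 for Flvcr1. Over all tested genes 32.4% were called in that test.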

How the results depend on the processing

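Each of 54 changes (9 genes in 6 comparisons) was recomputed under up to 22 alternatives, and 32 of the 38 called changes kept direction and call in all of them. Those that did not, and those that gained a call, are given beside their genes above, except the knockdown within DTPA for Abcb6 (−0.57, adjusted p = 0.00515), which did not hold when replicate 1 of siControl plus DTPA was left out (−0.45, adjusted p = 0.0614), and Abcb6 could not be fitted with a filter of 5 TPM. With DTPA alone, 2 genes were called, 4 with voom and 1 to 3 when a library was left out, 1 being the count without siControl plus DTPA replicate 1. The other 5 counts stayed within 1.5 times.

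Signs turned only for changes that passed in neither fit. With DTPA alone, Abcb10 stood at −0.0327 under quantile normalization and spanned −0.0135 to 0.0531 over the left-out libraries. Abcb6 spanned −0.18 to 0.0543, Tmem14c stood at −0.24 under quantile normalization and −0.0571 with the duplicated library as labelled and spanned −0.0323 to 0.0679, and Glrx5 stood at 0.0113 under median-of-ratios scaling and 0.00733 with the duplicated library and spanned −0.0646 to 0.00226. With siZIP10 alone, Flvcr1 stood at 0.0097 under median-of-ratios scaling, 0.0324 under quantile normalization and 0.0053 with voom, and spanned −0.0509 to 0.0251. The interaction of Slc25a38 was 0.0126 under quantile normalization. The knockdown within DTPA for Tspo2 was −0.27 with the duplicated library as labelled, −0.0102 with a replicate block, and spanned −0.0288 to 0.0869. The cause was not tested.

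Samples with the same replicate number did not deviate together (r = −0.06 to 0.06 over 15 pairs). Deviations were taken from means of very few libraries, so this check cannot tell whether such samples shared a day or batch. With a replicate block the counts of called genes were 3 for DTPA alone, 5 for siZIP10 alone, 8 for both treatments, 9 for DTPA within the knockdown, 8 for the knockdown within DTPA and 7 for the interaction. Depth limits Abcb6 and Tspo2 most, with 58 to 133 and 208 to 477 reads per library.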
